A study of Mus musculus with 12 samples.

Results

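The genes described here encode the proteins of the mitochondrial ribosome and were taken as every row of both count tables whose symbol starts with Mrps or Mrpl and a number. The rule found 76 genes of 23420 symbols, 29 named Mrps for the small subunit and 47 named Mrpl for the large subunit, and all 76 matched the mouse gene table. They were followed in R1 cells, a mouse embryonic stem cell line kept on gelatin with the cytokine LIF, 48 h after transfection with siRNAs. The knockdown group received siRNAs against Krr1, a factor of the small-subunit processome, which assembles the small subunit of the cytosolic ribosome in the nucleolus. Its libraries are called siKrr1 A, siKrr1 C and siKrr1 D. The letters name the Krr1 siRNAs, so each library may come from a different siRNA and need not repeat the same treatment. The control group holds libraries named siGFP, siNC and Lipo. The labels speak of different control siRNAs, and the name Lipo states none. Every lysate gave an RNA-seq library and a library of footprints, the mRNA pieces that ribosomes shield from nuclease, so there are 3 libraries per group and assay. Nothing in the labels says that these were independent cultures, and the p-values measure only the spread between these samples.

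Mitochondrial ribosomes translate the few mRNAs of the mitochondrial genome, which encode membrane subunits of the respiratory chain and of the ATP synthase. Their proteins are all encoded in the nucleus, are made by cytosolic ribosomes and are imported into the organelle. Some are counterparts of bacterial ribosomal proteins, while others exist only in mitochondria. The symbol does not always give the place of the protein: Mrps30 and Mrps18a carry small-subunit names although their proteins sit in the large subunit, and Mrps36 is now assigned to the oxoglutarate dehydrogenase complex.

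Reads counted on genes numbered 31318772 to 37673764 in the knockdown RNA libraries and 35795829 to 39670139 in the control RNA libraries. The footprint libraries held 21615934 to 28911254 in the knockdown and 22317119 to 28026444 in the controls. Krr1 itself had 33.7, 58.0 and 64.6 CPM of RNA (counts scaled to a common library size with TMM factors) in siKrr1 A, C and D, against 155, 151 and 160 CPM in siGFP, siNC and Lipo. The log2 fold change of Krr1 RNA was -1.58 ± 0.18 (SE, n = 3 per group, edgeR, Benjamini-Hochberg adjusted p = 0.00228), and that of its footprints was -1.77 ± 0.18 (edgeR adjusted p = 0.000819). The 7 stem cell markers summed to 6224 to 7450 CPM of RNA in knockdown libraries and to 7756 to 7909 CPM in controls, with all 7 present. In RNA, Nanog, Esrrb and Zfp42 were called lower by edgeR (42.9% of the 7, against 2.11% of all genes). The RNA calls of Esrrb and Zfp42 were lost without siKrr1 A or any 1 of the controls (edgeR adjusted p = 0.105 and 0.111 without Lipo), and that of Nanog was not. In footprints Nanog and Esrrb were called lower (28.6%, against 2.68% of all genes). Leaving out libraries was not examined for these footprint calls. The 8 fibroblast markers, which would show feeder cells, summed to 4.44 to 9.10 CPM in knockdown and 7.84 to 8.94 CPM in control RNA. Of these 8, Col3a1, Lum and Postn were at 0 in every RNA library.

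Most mitochondrial ribosomal protein genes had footprints slightly below their control level after Krr1 knockdown, and the shift was small. The lower family median of RNA rested mainly on library siKrr1 D, since the other knockdown medians lay within the control range. Over both assays, 4 individual genes passed the test. In RNA, 0 of the 76 genes rose and 2 fell, Mrpl14 and Mrps12, against 2.69% of all 14038 genes tested called higher and 2.11% called lower. In footprints, where 75 passed the filter on low counts, 0 rose and 3 fell, Mrpl14, Mrpl50 and Mrps7, against 3.39% of all 13287 genes called higher and 2.68% called lower. In either direction, 4.8% of all genes were called in RNA and 6.07% in footprints, so a count of 2 or 3 called members is near the background. In bulk lysates, less RNA per cell and fewer cells of a type cannot be told apart, and a level is a share of its library.

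The genes that passed the test are shown with the stretch around their transcription start, from 120 bases before it to 30 bases of the transcript. They are shown because 4 of 4 of them lie head to head with a neighbour. Such a neighbour is found for 34.3% of the 67 family genes with a promoter sequence and 8.48% of all protein-coding genes. The sequences come from RefSeq (GRCm38.p6, the build also named mm10) and read 5′ to 3′ along the gene. For Mrpl14 the start used lies inside the gene's annotated span, which begins at 45685722, while for the others it is the edge of the span. Capitals mark CCGGAAG, the core of the sites bound by the ETS factor GABPA. In Mrps12 it begins 1 base downstream of the start base, and the other stretches do not hold these letters on either strand.
Mrps7, chr11:115604020-115604169, plus strand: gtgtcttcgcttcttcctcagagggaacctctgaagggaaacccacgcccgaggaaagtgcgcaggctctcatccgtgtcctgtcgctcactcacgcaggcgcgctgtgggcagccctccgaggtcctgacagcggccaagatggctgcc
Mrps12, chr7:28741792-28741941, minus strand: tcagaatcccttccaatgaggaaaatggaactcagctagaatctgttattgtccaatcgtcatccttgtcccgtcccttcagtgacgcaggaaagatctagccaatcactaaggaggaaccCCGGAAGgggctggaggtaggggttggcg
Mrpl14, chr17:45686229-45686378, plus strand: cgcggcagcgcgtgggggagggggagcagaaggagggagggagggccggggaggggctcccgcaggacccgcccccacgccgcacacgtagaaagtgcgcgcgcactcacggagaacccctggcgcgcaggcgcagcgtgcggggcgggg
Mrpl50, chr4:49521054-49521203, minus strand: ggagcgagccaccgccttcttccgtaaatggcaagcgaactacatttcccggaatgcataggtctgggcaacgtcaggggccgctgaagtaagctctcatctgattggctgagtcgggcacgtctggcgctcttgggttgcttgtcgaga

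Of the small-subunit genes, Mrps12 (chromosome 7, 28739641 to 28741821) encodes the counterpart of bacterial S12, which lines the decoding centre. Its RNA stood at 50.9, 54.4 and 51.9 CPM in siKrr1 A, C and D, against 64.0, 65.9 and 64.7 CPM in siGFP, siNC and Lipo. The groups did not overlap, and the log2 fold change was -0.31 ± 0.07 (SE, n = 3 per group, edgeR adjusted p = 0.0357). Mrps12 footprints were at 38.3, 42.4 and 38.1 CPM in siKrr1 A, C and D, against 45.2, 46.7 and 43.5 CPM in siGFP, siNC and Lipo. These groups did not overlap either, but the footprint difference of -0.19 ± 0.07 did not pass the test (edgeR adjusted p = 0.156).

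Mrps7 (chromosome 11, 115604140 to 115608036) encodes the counterpart of bacterial S7, a protein of the head of the small subunit. Its footprints were at 68.0, 70.0 and 65.4 CPM in siKrr1 A, C and D, against 82.9, 77.4 and 80.2 CPM in siGFP, siNC and Lipo. The groups did not overlap, and the log2 fold change in footprints was -0.24 ± 0.06 (SE, n = 3 per group, edgeR adjusted p = 0.0481). Its RNA had a mean of 187 ± 10.9 CPM in knockdown and 204 ± 5.36 CPM in control libraries (SD, n = 3 each), a log2 fold change of -0.12 ± 0.07 that did not pass (edgeR adjusted p = 0.348). The span of Mrps7 overlaps that of Gga3 by 378 bases and that of Mif4gd by 119 bases, and the strand setting of the counting is not given in the sources used here. Gga3 also lay below all controls in both assays. Its log2 fold changes were -0.09 ± 0.08 in RNA (edgeR adjusted p = 0.547) and -0.18 ± 0.07 in footprints (edgeR adjusted p = 0.127), neither called. Whether the 2 genes share reads was not tested.

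Of the large-subunit genes, Mrpl14 (chromosome 17, 45685722 to 45698495) had the lowest log2 fold change in footprints and passed the test in both assays. It encodes the counterpart of bacterial L14 at the face that meets the small subunit, where the assembly factor Malsu1 docks on immature large subunits. Its RNA stood at 31.7, 38.5 and 29.9 CPM in siKrr1 A, C and D, against 48.8, 48.2 and 46.6 CPM in siGFP, siNC and Lipo, so the knockdown mean was 69.8% of the control mean. The groups did not overlap, and the log2 fold change was -0.52 ± 0.10 (SE, n = 3 per group, edgeR adjusted p = 0.0192). Its footprints were at 45.1, 47.6 and 43.9 CPM in siKrr1 A, C and D, against 58.0, 65.4 and 56.1 CPM in siGFP, siNC and Lipo. Again the groups did not overlap, with a log2 fold change of -0.40 ± 0.08 (edgeR adjusted p = 0.0156). Malsu1 RNA was not called, with a log2 fold change of 0.17 ± 0.07 (edgeR adjusted p = 0.174).

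Mrpl50 (chromosome 4, 49512597 to 49521083) encodes a large-subunit protein without a bacterial counterpart. Its footprints were at 85.9, 97.2 and 81.3 CPM in siKrr1 A, C and D, against 117, 111 and 112 CPM in siGFP, siNC and Lipo. The groups did not overlap, and the log2 fold change was -0.37 ± 0.07 (SE, n = 3 per group, edgeR adjusted p = 0.0165). Its RNA averaged 104 ± 6.70 CPM in knockdown and 116 ± 2.79 CPM in control libraries (SD, n = 3 each), a log2 fold change of -0.16 ± 0.07 that did not pass (edgeR adjusted p = 0.242). The difference between the assays for Mrpl50, its translational efficiency, was -0.21 ± 0.11 on the log2 scale and did not pass the test (edgeR adjusted p = 1.00).

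**Figure D1:**
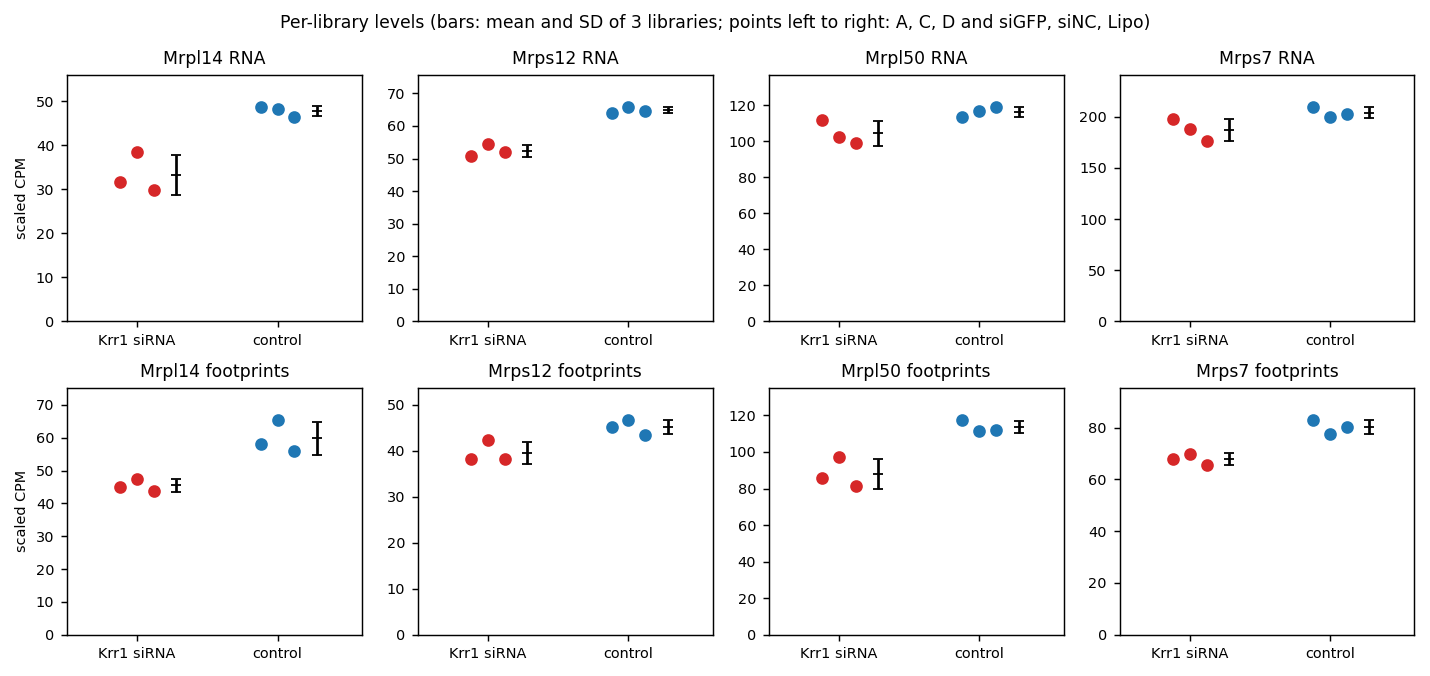
Scaled CPM (vertical axes, from 0) of the 4 genes past the test, in RNA (top) and footprints (bottom). Points are libraries, in the order siKrr1 A, C, D and then siGFP, siNC, Lipo, and bars give the mean and SD of 3 libraries. All knockdown points of Mrpl14 (29.9 to 38.5 CPM of RNA) lie below all control points (46.6 to 48.8 CPM).

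Each of these 5 calls was lost when any one of the 3 control libraries was left out. The highest edgeR adjusted p reached in this way was 0.0917 for Mrpl14 RNA without siGFP and 0.0894 for Mrpl14 footprints without siNC. It was 0.167 for Mrps12 RNA without siNC, 0.0825 for Mrpl50 footprints without siGFP and 0.183 for Mrps7 footprints without Lipo. Leaving out siKrr1 A also ended the calls of Mrpl14 RNA, Mrps12 RNA and Mrps7 footprints, and leaving out siKrr1 D ended those of Mrps12 RNA and Mrps7 footprints. None of the 5 was lost without siKrr1 C, and the footprint calls of Mrpl14 and Mrpl50 held without any 1 of the knockdown libraries.

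The neighbour of Mrpl14 went the other way. Tmem63b, a mechanosensitive ion channel gene, starts 131 bases from the Mrpl14 start used here, on the opposite strand. The annotated spans of Tmem63b and Mrpl14 overlap by 622 bases. It was singled out after its values were seen. Of 20 head-to-head neighbours outside the family found by symbol, it was the 1 called in either assay. Of all genes, 4.8% were called in RNA and 6.07% in footprints, so 1 call in 20 is near the background. Tmem63b RNA was at 75.5, 64.6 and 67.2 CPM in siKrr1 A, C and D, against 53.7, 52.6 and 51.3 CPM in siGFP, siNC and Lipo. That is a log2 fold change of 0.39 ± 0.08 (SE, n = 3 per group, edgeR adjusted p = 0.023), which was lost without siKrr1 A or any 1 of the controls (highest adjusted p 0.115, without Lipo). Its footprints were at 57.6, 47.4 and 51.1 CPM in siKrr1 A, C and D, against 40.5, 40.4 and 39.5 CPM in the controls, a log2 fold change of 0.37 ± 0.08 (edgeR adjusted p = 0.0236). That call was lost without any 1 of the controls (highest adjusted p 0.121, without Lipo). Sars2, the mitochondrial seryl-tRNA synthetase gene that starts 147 bases from Mrps12, was not called in RNA (-0.16 ± 0.10, edgeR adjusted p = 0.39).

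Among the small-subunit genes that did not pass, Mrps34 was nearest to the threshold in RNA. The protein is mitochondria-specific, and its RNA was at 66.6, 68.6 and 64.6 CPM in siKrr1 A, C and D, against 89.3, 79.6 and 77.5 CPM in siGFP, siNC and Lipo. The groups did not overlap, and the log2 fold change was -0.30 ± 0.08 (SE, n = 3 per group, edgeR adjusted p = 0.0524). Its footprints overlapped, at 110, 126 and 111 CPM in siKrr1 A, C and D and 125, 120 and 122 CPM in the controls, with a log2 fold change of -0.08 ± 0.07 (edgeR adjusted p = 0.519). Mrps10 footprints, at 16.3, 16.5 and 15.9 CPM in knockdown and 19.8, 19.9 and 19.2 CPM in control libraries, had a log2 fold change of -0.27 ± 0.09 (edgeR adjusted p = 0.0905). The highest small-subunit values in RNA were the log2 fold changes of 0.08 ± 0.08 for Mrps28 and 0.07 for both Mrps23 and Mrps17, none past the test. In footprints the highest were 0.07 ± 0.37 for Mrps36 and 0.05 ± 0.06 for Mrps31.

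Mrps18a, Mrps18b and Mrps18c are paralogs related to bacterial S18, of which the Mrps18a protein sits in the large subunit. None of these 3 passed the test, with log2 fold changes in RNA of -0.02 ± 0.09, -0.03 ± 0.07 and -0.11 ± 0.09 for a, b and c. Their footprints gave -0.04 ± 0.09, -0.13 ± 0.07 and -0.07 ± 0.08 in the same order. Mrps30, whose protein also sits in the large subunit, had 173, 178 and 163 CPM of RNA in siKrr1 A, C and D, against 157, 175 and 174 CPM in siGFP, siNC and Lipo. Its RNA groups overlapped, while its footprints, at 151, 141 and 143 CPM in knockdown and 164, 159 and 167 CPM in control libraries, did not. The footprint difference of Mrps30 was -0.17 ± 0.06 on the log2 scale and did not pass (edgeR adjusted p = 0.0915).

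Among the large-subunit genes that did not pass, Mrpl12, Mrpl35, Mrpl36 and Mrpl46 had knockdown libraries below all controls in both assays. Of all genes, 13.4% lay so in RNA and 13.6% in footprints, and the share in both was not computed. Mrpl12 is the stalk protein that binds translation factors, and its RNA was at 258, 250 and 218 CPM in siKrr1 A, C and D, against 275, 283 and 274 CPM in siGFP, siNC and Lipo. Its log2 fold change was -0.20 ± 0.08 in RNA (edgeR adjusted p = 0.165) and -0.22 ± 0.06 in footprints (edgeR adjusted p = 0.0606). Mrpl36 RNA was at 82.6, 75.7 and 67.3 CPM in siKrr1 A, C and D, against 91.3, 89.3 and 94.2 CPM in the controls, with a log2 fold change of -0.28 ± 0.08 (edgeR adjusted p = 0.0796). Mrpl42 footprints spread widely in the knockdown, at 83.3, 66.3 and 53.5 CPM in siKrr1 A, C and D, against 90.4, 84.4 and 86.4 CPM in the controls. The groups did not overlap, yet the log2 fold change of -0.37 ± 0.13 did not pass (edgeR adjusted p = 0.113).

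Mrpl38, a protein of the central protuberance, was the 1 gene of the family whose knockdown libraries lay above all controls in both assays. Of all genes, 13.6% lay above in RNA and 14.3% in footprints, and the share in both was not computed. Only the RNA and footprint shares taken singly are known. Mrpl38 RNA was at 94.1, 89.9 and 86.2 CPM in siKrr1 A, C and D, against 80.5, 77.9 and 74.7 CPM in siGFP, siNC and Lipo. That is a log2 fold change of 0.21 ± 0.07 that did not pass (edgeR adjusted p = 0.12). Mrpl32, which the m-AAA protease must cleave before it joins the ribosome, had 48.9, 53.5 and 48.9 CPM of RNA in siKrr1 A, C and D, against 39.7, 48.0 and 48.2 CPM in the controls (log2 fold change 0.15 ± 0.09, edgeR adjusted p = 0.393). Mrpl16, with 0.07 ± 0.09 in RNA and 0.12 ± 0.07 in footprints, had the highest footprint value. Mrpl45, which attaches the ribosome to the inner membrane, and Mrpl44, which has an RNase III-like fold, had log2 fold changes of -0.08 ± 0.07 and -0.02 ± 0.07 in RNA. In footprints they gave -0.09 ± 0.06 and -0.11 ± 0.06, and Mrpl41 gave -0.20 ± 0.10, none past the test. Mrpl23 had the lowest RNA value, -0.77 ± 0.35, on 18 to 33 reads per library in the knockdown and 37 to 58 in the controls, and it was listed at 0 in siGFP footprints.

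**Figure D2:**
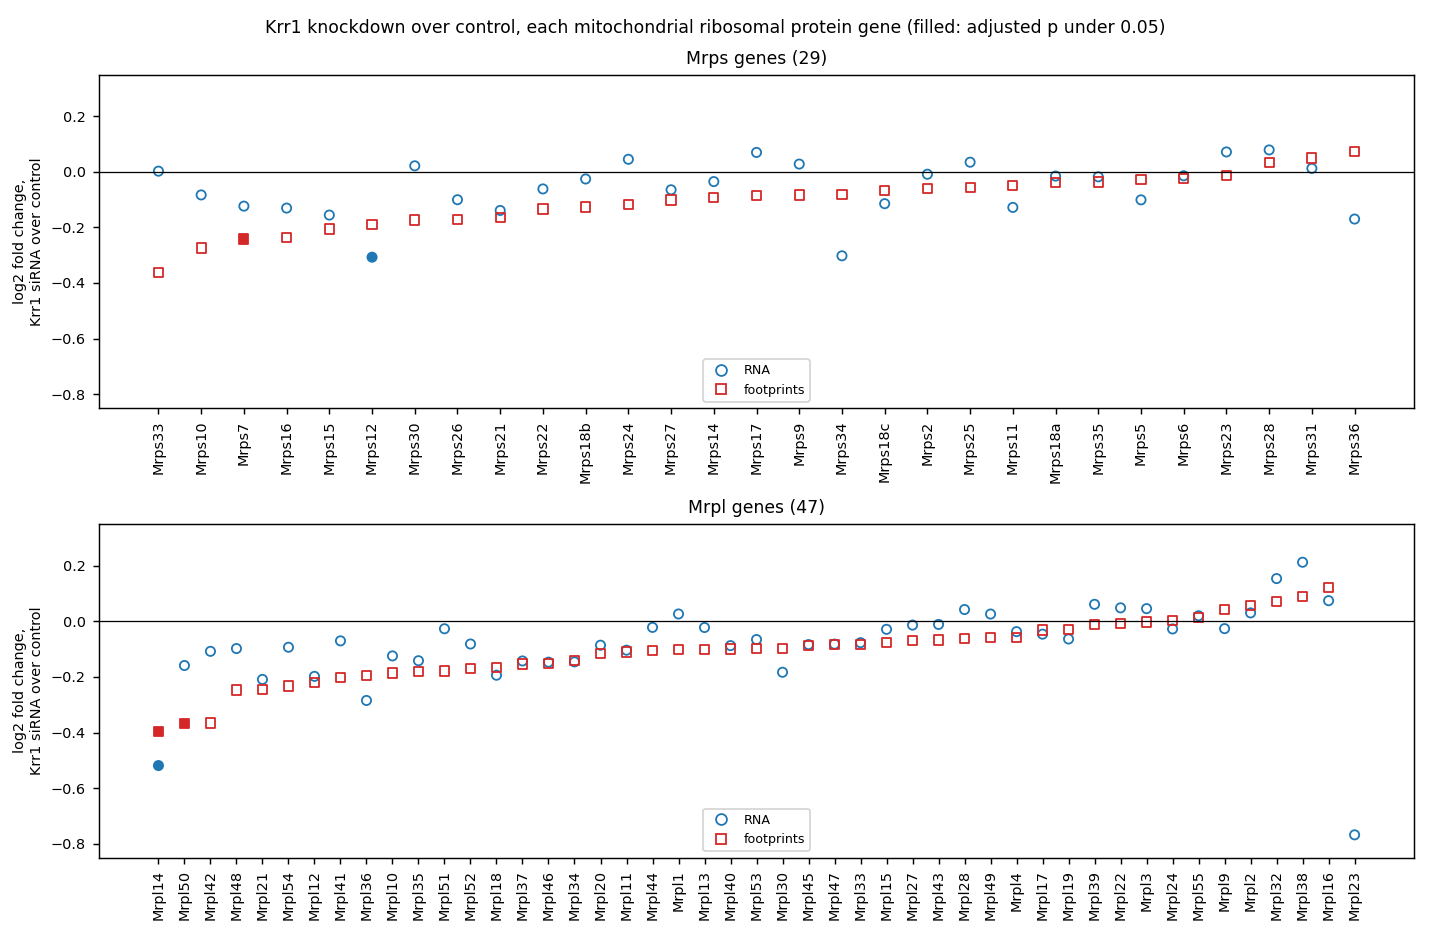
Log2 fold change of the knockdown over the control group (vertical axis) for each Mrps gene (top) and Mrpl gene (bottom), in RNA (circles) and footprints (squares), ordered by footprints, with Mrpl23, which has no footprint value, at the right. Filled symbols have an edgeR adjusted p under 0.05, and 65 of 75 squares lie below 0.

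Over the whole family, 56 of 76 genes (73.7%) had a log2 fold change below 0 in RNA, against 50.2% of all genes tested, and the median was -0.064 against -0.0012 for all genes. In footprints 65 of 75 (86.7%) lay below 0, against 48.5% of all genes, with a median of -0.098 against 0.0067. At an unadjusted p under 0.05, RNA gave 8 lower and 1 higher member, against 9.83% and 11.1% of all genes. Footprints gave 19 lower and 0 higher at that level, against 10.5% and 12% of all genes, and 3 of the 19 passed the adjustment. Knockdown libraries lay below all controls for 14 of 76 genes in RNA (18.4%), against 13.4% of all genes, and above them for 2 of 76, against 13.6%. In footprints they lay below for 22 of 75 (29.3%), against 13.6% of all genes, and above for 1 of 75, against 14.3%.

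The per-library medians show where this shift lay. The median deviation of the 76 RNA values from the control mean was 0.024, -0.037 and -0.16 in siKrr1 A, C and D, against -0.045, 0.0063 and 0.036 in siGFP, siNC and Lipo (log2 scale). In RNA, siKrr1 A and siKrr1 C lay within the range of the controls and siKrr1 D alone lay below it. In footprints the medians were -0.073, -0.087 and -0.14 in siKrr1 A, C and D, against 0.026, -0.010 and -0.024 in the controls, so the groups did not overlap. Without siKrr1 D the fitted median was -0.013 in RNA, with 46 of 76 genes below 0, and -0.075 in footprints, with 59 of 75 below 0. Without Lipo the RNA median was -0.031, with 47 of 76 below 0. Library siKrr1 D was also the lowest for the cytosolic ribosomal protein genes and the respiratory chain genes.

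**Figure D3:**
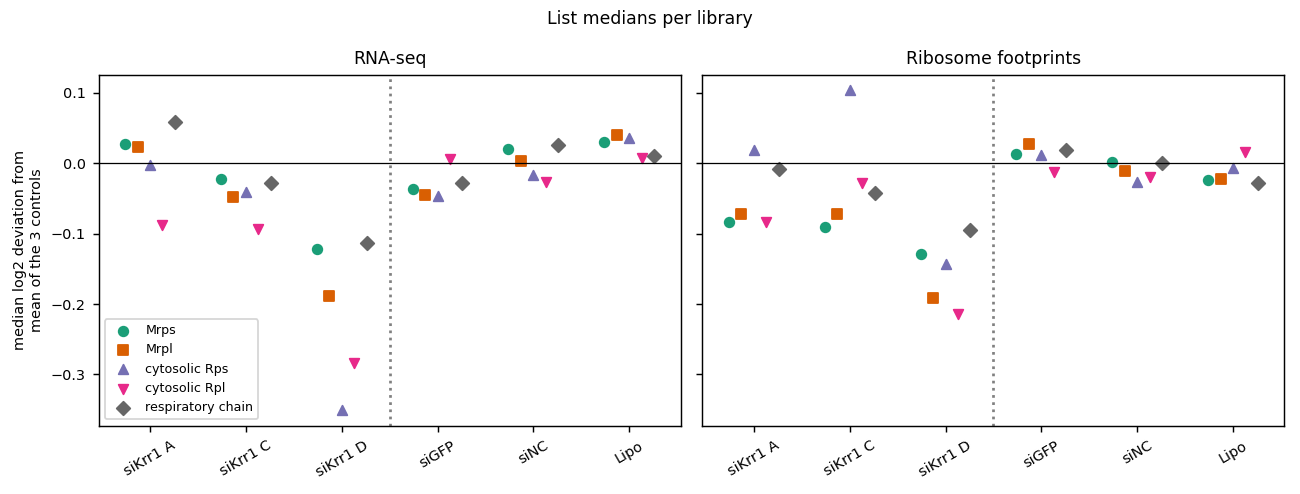
Median log2 deviation from the mean of the 3 controls (vertical axis) in each library, in RNA (left) and footprints (right), for Mrps, Mrpl, cytosolic Rps and Rpl, and respiratory chain genes. Mrps and Mrpl lie below 0 in footprints of all 3 knockdown libraries, and siKrr1 D is the lowest library for each of the 5 lists in both panels.

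The 2 subunits differed little. The median log2 fold change in RNA was -0.035 for the 29 Mrps genes, with 20 below 0, and -0.070 for the 47 Mrpl genes, with 36 below 0. In footprints it was -0.085 for Mrps (26 of 29 below 0) and -0.099 for Mrpl (39 of 46). The difference of Mrps minus Mrpl was 0.035 in RNA and 0.014 in footprints, beside a pooled SD over libraries of 0.024 and 0.033 (3 libraries per group). The RNA difference was 0.0057 without siKrr1 D and 0.0040 without siGFP.

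For comparison, nuclear genes of the cytosolic ribosome had medians in RNA of -0.12 (Rps, 31 genes) and -0.18 (Rpl, 51 genes), beside -0.064 for the mitochondrial family. The cytosolic Rps value leaned on 1 library, with per-library RNA medians of -0.0025, -0.040 and -0.35 in siKrr1 A, C and D, against -0.046, -0.017 and 0.036 in siGFP, siNC and Lipo. The cytosolic Rpl medians were -0.088, -0.093 and -0.28 in siKrr1 A, C and D, against 0.0057, -0.027 and 0.0082 in the controls. In footprints the medians were 0.010 for cytosolic Rps and -0.098 for cytosolic Rpl beside -0.098 for the mitochondrial family. The nuclear respiratory chain genes had medians of -0.027 in RNA and -0.048 in footprints. These medians were not tested against each other.

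Translational efficiency, the change of footprints relative to RNA in 1 model over the 12 libraries without a term for the lysate, gave no call for any of the 76 genes or for any of all 14236 genes tested (0% called, edgeR and DESeq2 both 0 for the family). At an unadjusted p under 0.05 there was 1 member, Mrps30, with -0.20 ± 0.09 on the log2 scale, against 0.78% of all genes lower and 1.59% higher. The family's median was -0.045, with 57 of 76 genes below 0, against a median of 0.00054 and 49.9% below 0 for all genes. It was -0.054 for Mrps and -0.037 for Mrpl. The per-library values overlapped, at -0.079, -0.030 and -0.0024 in siKrr1 A, C and D and 0.075, -0.0069 and -0.052 in siGFP, siNC and Lipo. Without siGFP the median was -0.011, with 41 of 76 below 0, and without siKrr1 A it was -0.028, with 46 of 76 below 0. The main model leaves out that the 2 assays share lysates. With a term for the lysate the family's median was -0.046, with 57 of 76 below 0. No member was called in that fit, though a few of all genes were.

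Split by current ribosomal protein names, 45 genes have bacterial-type names and 30 are named as mitochondria-specific, a class that here takes in the S18 paralogs Mrps18a and Mrps18b, with Mrps36 in neither. The bacterial-type genes had medians of -0.077 in RNA, -0.085 in footprints and -0.026 in translational efficiency. The mitochondria-specific genes had medians of -0.044 in RNA, -0.10 in footprints and -0.081 in translational efficiency. In translational efficiency 28 of 30 mitochondria-specific genes lay below 0, against 29 of 45 bacterial-type genes, and Mrps34 (0.22 ± 0.10) was the highest of the specific class. Per library, the mitochondria-specific medians overlapped between the groups, at -0.10, -0.062 and -0.027 in siKrr1 A, C and D and 0.099, -0.0095 and -0.054 in siGFP, siNC and Lipo. Without siGFP 23 of 30 specific genes lay below 0 and their median was -0.047, and the bacterial-type median was 0.017. Without siKrr1 A the bacterial-type median was 0.0097, with 20 of 45 below 0, and the specific median was -0.057, with 26 of 30 below 0.

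**Figure D4:**
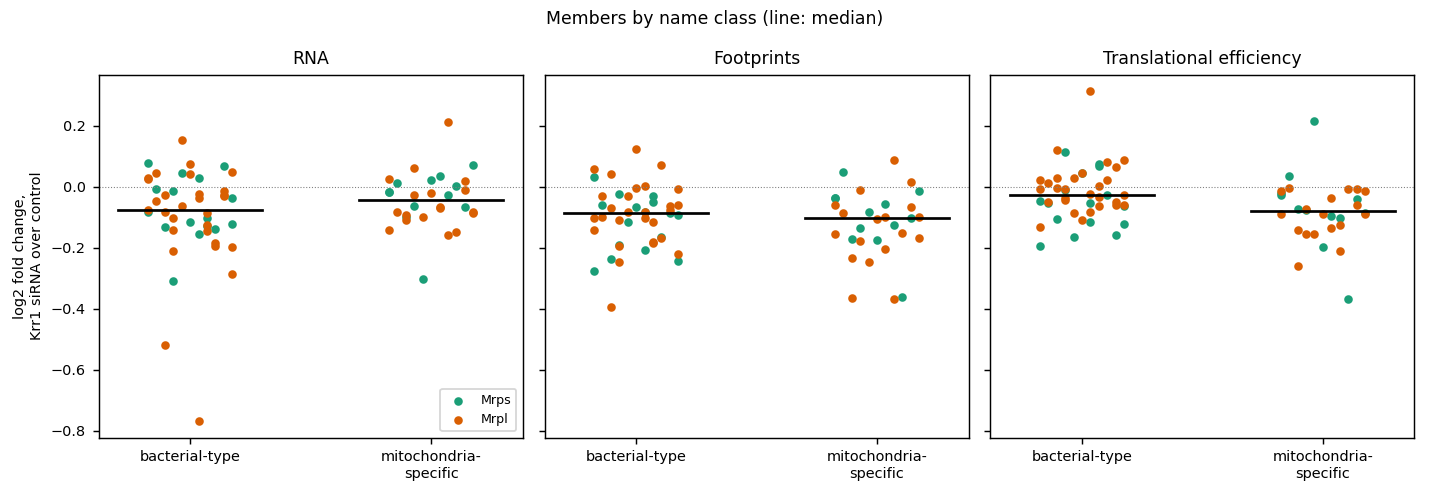
Log2 fold change of knockdown over control (vertical axis) of each gene with a bacterial-type or a mitochondria-specific name, in RNA, footprints and translational efficiency, with Mrps in green and Mrpl in orange; lines are medians. In translational efficiency the medians are -0.026 and -0.081.

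The fold changes of the 2 assays went together across genes, as a description over 75 genes that share lysates and scaling. Pearson's r was 0.610 and Spearman's rho 0.620, with 52 genes below 0 in both assays, 7 above 0 in both and 16 with opposite signs.

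In control lysates the footprint-to-RNA ratio differed among the genes of this family, though by quartiles no more widely than among all genes. The quartiles of the log2 ratio were -0.60 and 0.29 for the family, against -0.66 and 0.58 for all genes. Relative to all genes, 26 of the 76 genes were higher in footprints and 40 lower, against 36.6% and 37.9% of 13911 genes called (edgeR adjusted p under 0.05, 3 control lysates). The median log2 ratio was -0.19 for the family, -0.091 for Mrps and -0.21 for Mrpl, against -0.024 for all genes. Mrpl52, a mitochondria-specific protein, was the highest, at 1.62, 1.51 and 1.35 in siGFP, siNC and Lipo (fitted 1.48 ± 0.06), and Mrpl17 followed with a fitted 1.10 ± 0.05. Of the Mrps genes, Mrps6 and Mrps15 were highest with 1.06 ± 0.07 and 0.91 ± 0.07, but the span of Mrps6 holds 29138 bases shared with Slc5a3. At the low end, Mrps7 was at -1.13, -1.14 and -1.13 in the 3 controls (fitted -1.15 ± 0.05), and Mrps26 at a fitted -0.95 ± 0.07. Mrpl18 had -1.67 ± 0.07, but its span overlaps Tcp1 by 1459 bases, and Mrpl23 had -2.82 ± 0.51 on at most 7 footprint reads per control library. Mrpl12, at -1.19 ± 0.05, was the lowest of the landmark proteins chosen for their function.

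**Figure D5:**
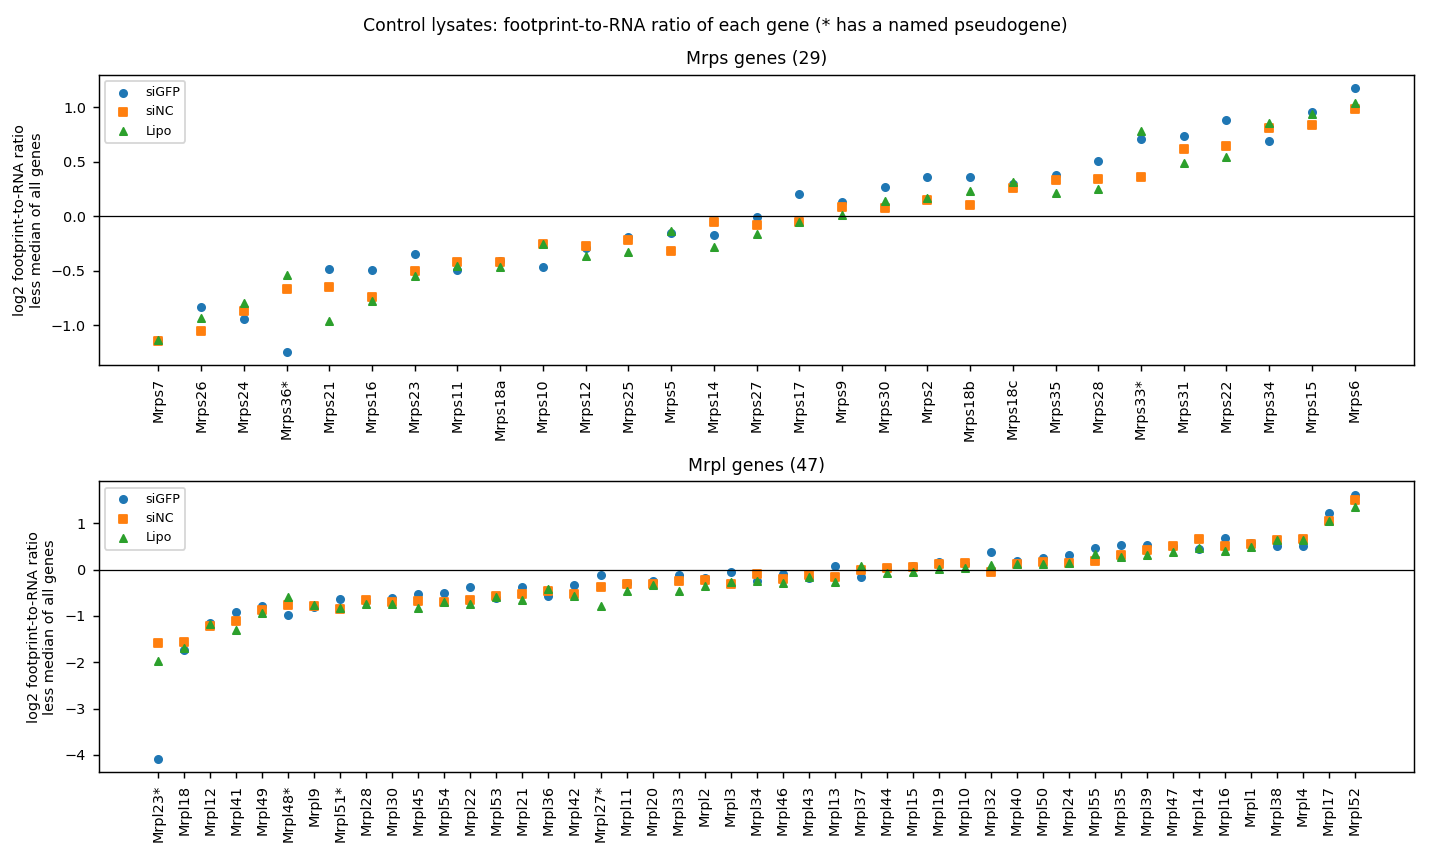
Log2 footprint-to-RNA ratio less the median of all genes (vertical axis) in the 3 control lysates, for Mrps (top) and Mrpl (bottom) genes ordered by their mean. Mrps7 lies at -1.13 to -1.14 in the 3 lysates and Mrpl52 at 1.35 to 1.62, while Mrpl23 is spread widely; an asterisk marks genes with a named pseudogene.

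Some values are uncertain because reads can be shared. For 6 genes, Mrpl23, Mrpl27, Mrpl48, Mrpl51, Mrps33 and Mrps36, the gene table names pseudogenes, and 5 of these 6 are the 5 genes with the fewest RNA reads. The spans of 19 genes overlap another gene whose RefSeq symbol is in the tables. Within the reads, the family took 0.832% to 0.891% of RNA counts in the knockdown and 0.872% to 0.905% in the controls. In footprints it took 0.663% to 0.706% in the knockdown and 0.706% to 0.728% in the controls.

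The promoters of this family share features that the rule did not use. RefSeq gave 300 bases around the start (250 before, 50 after) for 67 of the 76 genes. On either strand, CCGGAAG was in 24 of 67 (35.8%), against 12.9% of 17492 protein-coding genes. The NRF1 core GCGCATGCG was in 7 (10.4%, against 2.61%), and the YY1 core AAGATGGCG in 8 (11.9%, against 2.14%), and none of these strings of letters contains another. At least 1 of the 3 was in 34 of 67 (50.7%, against 16.6% of all), at 50.0% for Mrps and 51.2% for Mrpl. GABPA, NRF1 and YY1 are regulators of nuclear genes for mitochondria, and a match of letters describes the window only. The RNA log2 fold changes were 0.00 ± 0.08 for Gabpa, 0.01 ± 0.07 for Nrf1 and -0.08 ± 0.07 for Yy1, none called.

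Head-to-head neighbours with starts within 1000 bases were found for 23 of the 67 genes (34.3%), 26.9% of Mrps and 39.0% of Mrpl, against 8.48% of all protein-coding genes. In 1 pair both partners belong to the family: Mrpl46 and Mrps11 start 42 bases apart on chromosome 7 and so serve the large and the small subunit. Mrpl46 RNA was at 97.6, 91.9 and 84.4 CPM in siKrr1 A, C and D, against 98.0, 99.6 and 106 CPM in siGFP, siNC and Lipo (log2 fold change -0.15 ± 0.08, edgeR adjusted p = 0.311). Mrps11 RNA was at 76.9, 74.4 and 71.1 CPM, against 82.3, 82.2 and 78.6 CPM (-0.13 ± 0.07, edgeR adjusted p = 0.335). Both lay below all controls and neither passed the test. The 20 neighbours outside the family whose RefSeq symbol is in the tables had a median log2 fold change of -0.082 in RNA and -0.056 in footprints. Twnk, the neighbour of Mrpl43, was not found under that symbol and is left out.

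The other genes of the pathway were followed as lists. Of the 7 mitoribosomal genes with other symbols, such as Dap3 and Aurkaip1 of the small subunit, 0 were called, 5 lay below 0 in RNA and 7 of 7 in footprints (medians -0.071 and -0.086), with 2 lower in RNA and 3 lower in footprints at an unadjusted p under 0.05. Of all genes, 9.83% were lower in RNA and 10.5% in footprints at that level. Dap3 had log2 fold changes of 0.02 ± 0.08 in RNA and -0.02 ± 0.06 in footprints, and Aurkaip1 0.05 ± 0.07 and -0.07 ± 0.05. Of 28 mitoribosome assembly genes, 1 rose in RNA, Mrm1, an rRNA methyltransferase, at 37.7, 40.7 and 36.8 CPM in siKrr1 A, C and D, against 28.4, 31.6 and 28.5 CPM in siGFP, siNC and Lipo (0.38 ± 0.09, edgeR adjusted p = 0.035). The call was lost without siKrr1 A or any 1 of the controls (highest adjusted p 0.161, without Lipo). This 1 call is 3.57% of the 28 genes, against 2.69% of all genes called higher in RNA. At an unadjusted p under 0.05 (edgeR), 4 (14.3%) were higher and 4 (14.3%) lower in RNA, against 11.1% and 9.83% of all genes. Footprints of Mrm1 did not pass (0.47 ± 0.13, edgeR adjusted p = 0.0606). In footprints 0 assembly genes were called by edgeR. At an unadjusted p under 0.05 (edgeR), 1 was higher and 4 were lower, against 12% and 10.5% of all genes. Of 16 mitochondrial translation factors and mRNA-binding genes 0 were called by edgeR. At an unadjusted p under 0.05 (edgeR), 1 (6.25%) was higher in RNA, against 11.1% of all genes. At that level 2 (12.5%) were higher and 2 (12.5%) lower in footprints, against 12% and 10.5% of all genes. Lrpprc, which stabilises mitochondrial mRNAs, had 0.18 ± 0.06 in RNA (edgeR adjusted p = 0.132).

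Of 17 import and processing genes, 1 (5.88%) rose in both assays, against 2.69% of all genes called higher in RNA and 3.39% in footprints. Timm50, a receptor of the inner-membrane translocase, had 112, 113 and 107 CPM of RNA in siKrr1 A, C and D, against 87.8, 95.5 and 85.1 CPM in siGFP, siNC and Lipo (0.30 ± 0.07, edgeR adjusted p = 0.0394). Its footprint fold change was 0.22 ± 0.06 (edgeR adjusted p = 0.0428). Both calls were lost without siKrr1 C or any 1 of the controls, RNA also without siKrr1 A and footprints without siKrr1 D (highest adjusted p 0.193 in RNA, without Lipo, and 0.179 in footprints, without siNC). The footprint call was also lost without the filter on low counts (adjusted p = 0.0508) and in the fit of all 12 libraries (adjusted p = 0.0517). Of the 15 tested genes for mitochondrial DNA upkeep and regulators of mitochondrial genes, 0 were called in RNA and 2 (13.3%) fell in footprints, Ppargc1b and Myc. Of all genes, 2.68% were called lower in footprints. At an unadjusted p under 0.05 (edgeR), 3 of the 15 were lower in RNA, against 9.83% of all genes, and 3 in footprints, against 10.5%. Ppargc1b, a coactivator, had 7.75, 6.79 and 6.43 CPM of footprints in siKrr1 A, C and D, against 11.7, 10.1 and 11.5 CPM in the controls (-0.67 ± 0.13, edgeR adjusted p = 0.0151). Myc footprints were at 287, 290 and 294 CPM, against 375, 332 and 335 CPM (-0.26 ± 0.06, edgeR adjusted p = 0.0282). The RNA of both genes, though not called, also lay below all controls. Ppargc1b RNA was at 1.70, 1.61 and 1.40 CPM in siKrr1 A, C and D, against 2.05, 2.18 and 2.62 CPM in siGFP, siNC and Lipo. Myc RNA was at 24.8, 31.3 and 26.4 CPM, against 36.6, 32.4 and 36.0 CPM. Tfam, which packages mitochondrial DNA, had -0.03 ± 0.07 in RNA. Leaving out siGFP or Lipo ended the call of Ppargc1b (adjusted p = 0.0731 and 0.0907), and leaving out any 1 of the controls that of Myc (highest adjusted p 0.11, without siGFP), which was also lost in the fit of all 12 libraries (adjusted p = 0.0698).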

How the data were processed

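The authors deposited raw read counts per gene symbol, one table for RNA-seq and one for ribosome profiling, with STAR, HTSeq and the build mm10 named in the submitters' processing notes. Their versions, the annotation and the strand setting are not stated in any source used here. Reads counted on genes were 66.4% to 68.6% of unique alignments in RNA and 36.6% to 42.4% in footprints, and the rest stayed out of library sizes and tests. Knockdown columns carry letters while titles carry numbers, so they were assigned to their group and not to single titles. No pair of libraries was a duplicate (chi-square per degree of freedom 3.88 to 27.2).

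All genes were tested with edgeR 4.0.16 (limma 3.58.1, R 4.3.3), with the quasi-likelihood test, TMM factors, filterByExpr and Benjamini-Hochberg adjustment over all genes tested, with calls at an adjusted p under 0.05. For translational efficiency, 1 model over the 12 libraries held an assay-by-condition interaction. DESeq2 1.42.0, other size factors, no filter, a fit of all 12 libraries, the lysate as a block and leaving out libraries were alternatives. Lysates pair the assays per the labels, and deviations from the group means correlated within each lysate (r 0.265 to 0.713 over 6117 genes). The steps were tested on simulated data.

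The family, the gene lists and the tests were chosen with earlier results of these data known. Genes are named where called, where among the 3 highest or 3 lowest of a subunit in a comparison, where at the ends of the control ratio, as landmarks of the ribosome, or as called or abundant members of a list. Some genes the rule names are given only in the plots. Levels per coding length were not computed, so levels are not compared between genes. Gene positions and promoters come from RefSeq (GRCm38.p6).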

Additional observations from a re-analysis of the deposited data

How the results depend on the processing

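The count of members called depended on the test and on single libraries. In RNA the 2 calls became 4 with DESeq2 (adding Mrps34 and Mrpl36) and 4 in the fit of all 12 libraries (3 lower and 1 higher, Mrpl38), and 0 to 2 with each library left out. In footprints the 3 calls became 5 with DESeq2 and 5 without the filter on low counts (adding Mrpl42 and Mrpl12 each time), and 0 to 5 with each library left out. Over all genes, leaving out 1 library gave 114 to 1298 calls in RNA and 131 to 1337 in footprints, against 674 and 806. The RNA difference of Mrps minus Mrpl ranged from 0.0040 to 0.046 with each library left out (0.0057 without siKrr1 D). With the lysate as a replicate block, 0 members were called in translational efficiency, where 6 of all genes were, and 67 in the control ratio against 66 without it, and the block was run for these 2 comparisons only. Counting Mrps30 and Mrps18a with Mrpl moved no subunit difference beyond the spread between libraries. The median over members, left out by library as an alternative added after seeing the data, stayed below 0 in all 3 comparisons. The alternatives for named genes outside the family were added then too. Values of uncalled genes that changed sign with a library left out ranged in RNA from -0.0022 to 0.13 for Mrpl16, -0.056 to 0.015 for Mrpl44 (-0.038 without siGFP, 0.0052 without Lipo), -0.13 to 0.063 for Mrps18a (0.026 without siKrr1 C, -0.025 without siGFP, 0.012 without siNC), -0.058 to 0.027 for Mrps18b and -0.020 to 0.062 for Mrps30 (0.055 without siNC). In footprints they ranged from -0.14 to 0.024 for Mrps18a, -0.047 to 0.11 for Mrps28 and -0.18 to 0.30 for Mrps36 (-0.12 without siGFP, 0.21 without siNC). In translational efficiency they ranged from -0.055 to 0.010 for Mrpl12, -0.39 to 1.13 for Mrpl23 (-0.36 without siKrr1 C), -0.19 to 0.017 for Mrpl32, -0.075 to 0.064 for Mrpl45 (0.0043 without siKrr1 C), -0.0060 to 0.10 for Mrps18c and -0.096 to 0.46 for Mrps36. The causes were not tested. The alternative scaling of levels per coding length was not run. Counts of 0 to 7 reads limit Mrpl23 in footprints.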
